A study of Mus musculus with 4 samples.

Results

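The integrin genes Itga1, Itga2b, Itga4, Itga6, Itgal, Itgam, Itgb1, Itgb2 and Itgb3 were followed across the blood progenitors of mouse bone marrow, in RNA and in open chromatin (ATAC) of the same nuclei. The 9 genes were matched by symbol among 32272 gene rows, and the 187 ATAC peaks within 50 kb of the start interval that the file gives for each gene were taken from 174339 peaks. The cells were sorted lineage-negative, cKit-positive (Lin-cKit+) hematopoietic stem and progenitor cells (HSPCs) of young adult male C57BL/6 mice, and their nuclei went through single-nucleus multiome sequencing. Ctrl mice stayed unligated and Lig mice carried silk ligatures around molars for 14 days, a model of periodontitis, with 1 sample per condition, and the cocktail that removed lineage-positive cells held an antibody to CD11b, the protein of Itgam. The matrix pooled both samples under 2 barcode suffixes that no label ties to a condition, so the suffixes are called library 1 and library 2, stand in no group, and no ligature effect is given. A total of 5905 nuclei of library 1 (10294527 UMIs, 118239764 ATAC counts) and 7714 of library 2 (12537328 UMIs, 128699726 ATAC counts) had at least 200 genes and 1000 to 50000 ATAC counts.

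Integrins are surface receptors built from an alpha and a beta subunit. Progenitors use them to hold on to matrix proteins such as fibronectin, laminin and collagen and to counter-receptors on stromal cells, and mature blood cells use them to aggregate or to leave vessels. Each alpha subunit here has a preferred partner: Itga2b pairs with Itgb3 into the fibrinogen receptor of megakaryocytes and platelets, Itgam and Itgal pair with Itgb2 on leukocytes, and Itga1, Itga4 and Itga6 pair with Itgb1 into receptors for collagen, for fibronectin and Vcam1, and for laminin.

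Nuclei were clustered without any integrin gene and without the 538 peaks near them, so the values of the 9 genes had no part in forming the populations. Of 21 clusters, 16 carried a name from marker genes and formed 13 lineages, each called X-like: stem cells (HSC-like), lymphoid-primed multipotent progenitors (MPP-like), progenitors of megakaryocytes (MkP-like), erythroid cells (EryP-like), basophils (BaP-like), granulocytes and monocytes (GMP-like), neutrophils (NeuP-like), monocytes (cMoP-like), conventional and plasmacytoid dendritic cells (cDCP-like, pDCP-like), and 3 lymphoid lineages, pro-B-like, pro-NK/T-like and mature B-like nuclei. The 13 lineages held 61.2% of the nuclei; another 4 clusters of at least 100 nuclei had no name and are given by number. Kit, the gate's positive marker, stood at 242 and 157 CPM over all nuclei of libraries 1 and 2, and the libraries shared 72 barcode sequences, whose 144 nuclei could be left out with the same 10 calls. RNA levels (CPM) are UMIs of a gene per 1000000 UMIs of the population outside 3 genes of the ribosomal locus, and levels of different genes are not compared. Intervals are exact 95% Poisson intervals that cover counting error only. A gene was called higher in a lineage where its level was at least 2-fold that of all other nuclei in each library, with at least 20 UMIs in the lineage. A sparse gene reached these 20 UMIs mainly where it was high, so shares of listed genes called within a lineage only describe and support nothing. Of all 8714 genes with enough UMIs, 21.1% were called in at least 1 lineage, and of the 9 integrins, all with enough UMIs, 7 were called, in 10 pairs of gene and lineage. Itga1 and Itgb1 were not called in any lineage. No member was called in HSC-like, MPP-like, EryP-like and GMP-like nuclei, where 5 to 6 members had enough UMIs and 3.37%, 4.21%, 4.76% and 0.979% of all genes were called, nor in cDCP-like, pDCP-like and B-like nuclei, where 1 or 2 members had enough UMIs and 11.9%, 18.0% and 14.2% were.

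**Figure D1:**
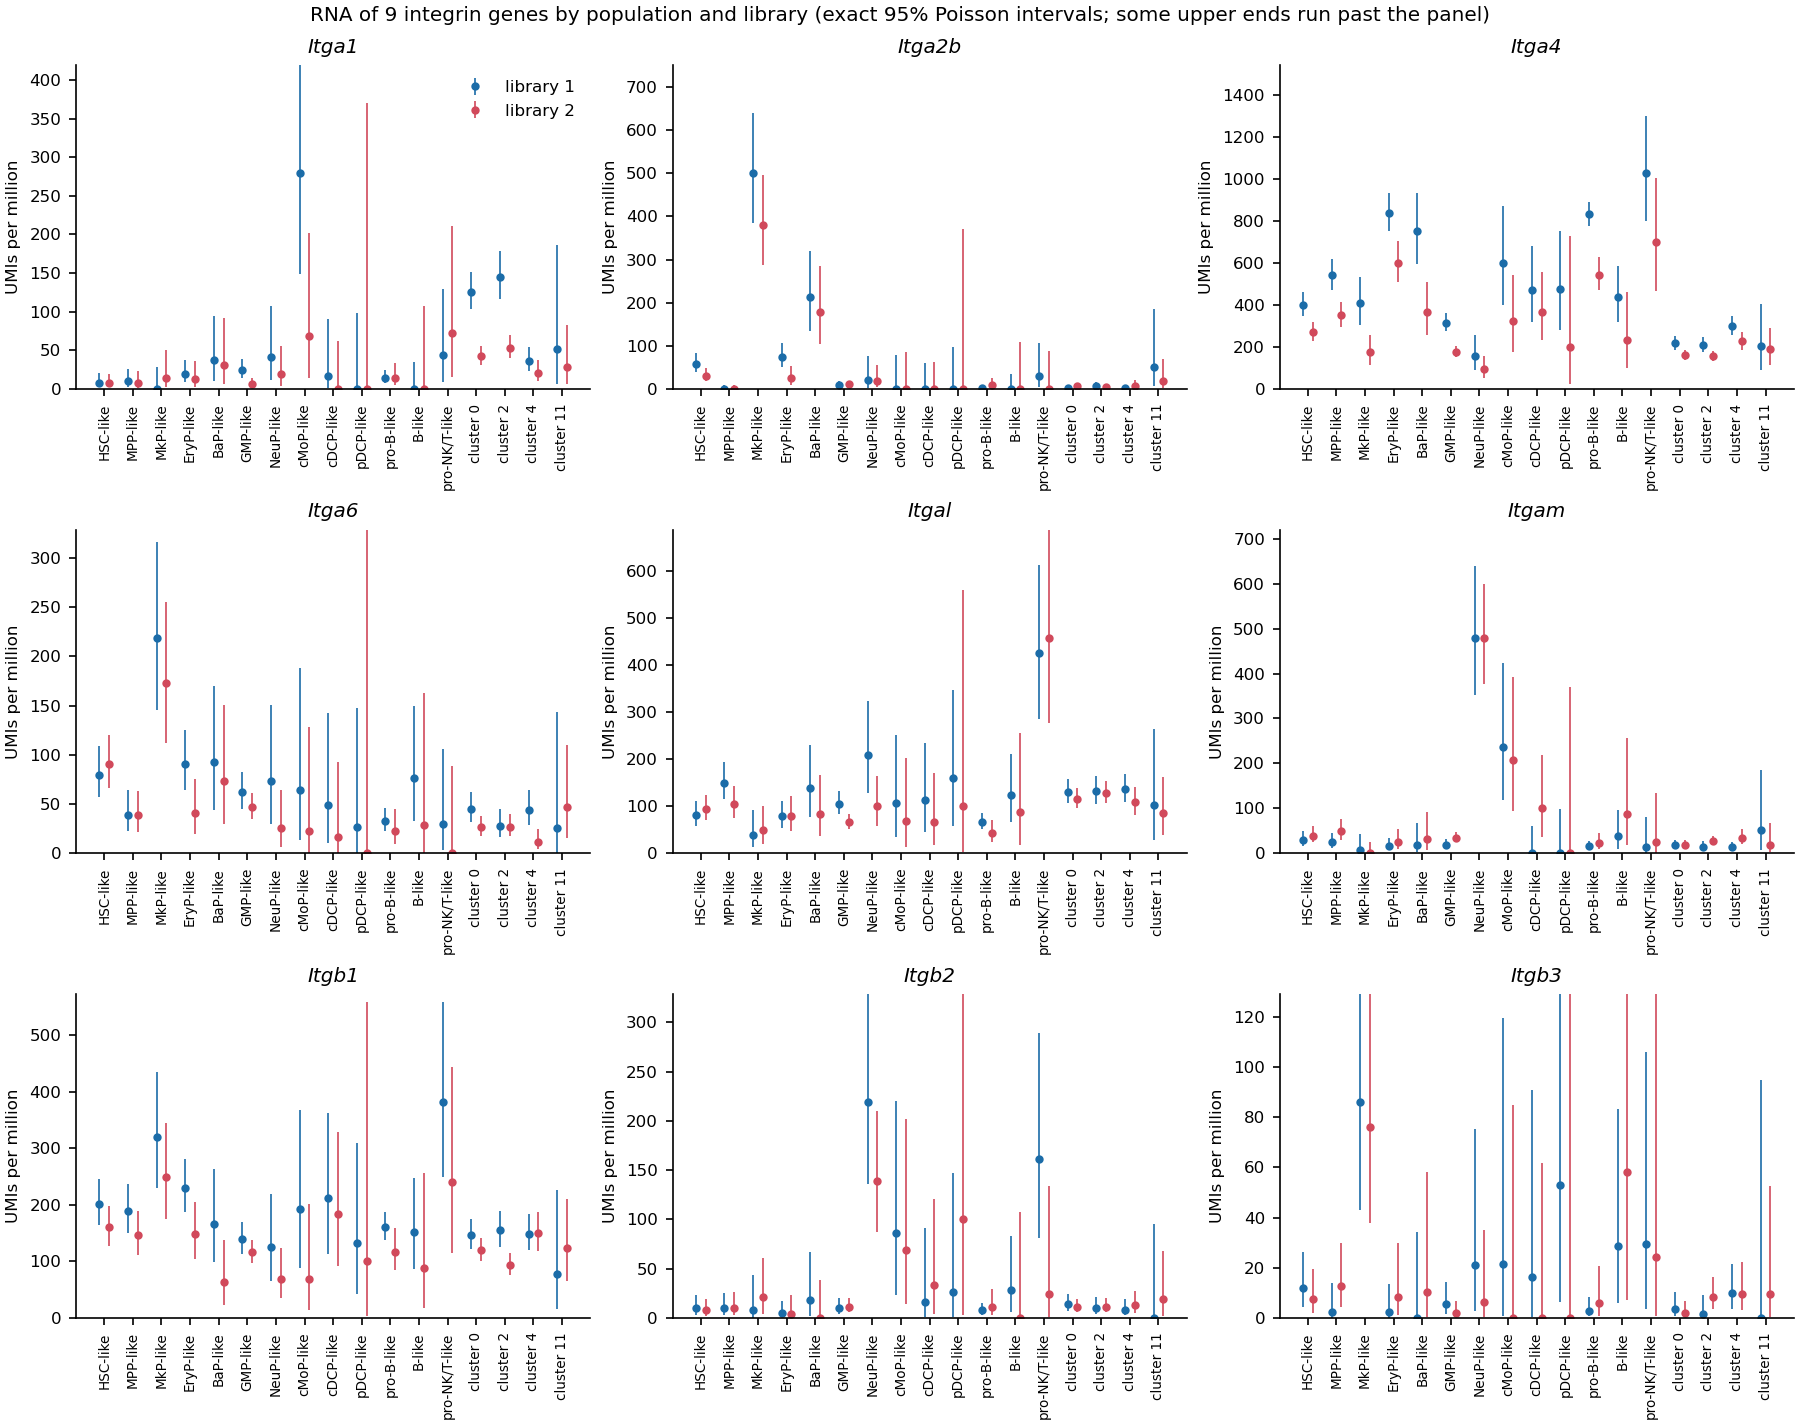
Each panel plots the RNA level of 1 integrin gene, in CPM (UMIs per 1000000), in 13 named lineages and 4 numbered clusters, with library 1 in blue, library 2 in red and exact 95% Poisson intervals as bars. Itga2b, Itga6 and Itgb3 were called in MkP-like nuclei, Itgam and Itgb2 in NeuP-like nuclei, and Itga4 and Itgal in pro-NK/T-like nuclei, with intervals that overlapped those of at least 1 other population in 1 or both libraries for each of these genes, while Itgb1 stayed between 62.9 and 382 in all 17 populations.

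Both genes of the fibrinogen receptor were called in MkP-like nuclei. Itga2b, the alpha subunit (GRCm38, as all positions here, chr11:102453297-102470122, minus strand), reached 501 CPM (386 to 639) in MkP-like nuclei of library 1 and 381 CPM (287 to 495) in library 2. These levels rested on 64 and 55 UMIs and were 27.4-fold and 29.9-fold those of the other nuclei. BaP-like nuclei came next with 213 CPM (135 to 320) and 178 CPM (104 to 285), 8.40-fold and 9.27-fold over the other nuclei. Itga2b was the call among 4 members with enough UMIs in BaP-like nuclei, beside 5.61% of all genes tested there. Both steps in this order, from MkP-like to BaP-like and from BaP-like to EryP-like nuclei, had intervals that did not overlap in either library. Below them, EryP-like nuclei held 74.3 and 24.7 CPM and HSC-like nuclei 58.0 and 30.1 CPM of Itga2b, each over 2-fold in library 1 alone and so not called. Itga2b had no UMI at all in MPP-like, cMoP-like, cDCP-like, pDCP-like or B-like nuclei, and 3 UMIs would have been 7.38 and 7.68 CPM in the MPP-like nuclei, where the limit was tightest; the few pDCP-like nuclei were not separated from MkP-like nuclei in both libraries.

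Itgb3, the beta subunit of that receptor (chr11:104608000-104670476, plus strand), was sparse, with 47 UMIs in each library. It reached 86.1 CPM (43.0 to 154) and 76.1 CPM (38.0 to 136) in MkP-like nuclei, from 11 UMIs in each library, which was 13.7-fold and 12.1-fold over the other nuclei; its intervals there lay above those of 8 of the other 16 populations in both libraries, and those of 8, BaP-like nuclei among them, were not separated from it. Its BaP-like nuclei, where Itga2b was called, held 0 UMIs in library 1 and 1 in library 2, with intervals that reached up to 34.2 and 58.4 CPM, the latter overlapping that of MkP-like nuclei. Itga6, a laminin receptor subunit used to mark stem cells and platelets (chr2:71745616-71858416, plus strand), was also called in MkP-like nuclei, at 219 CPM (146 to 317) and 173 CPM (112 to 255), or 4.33-fold and 4.70-fold. HSC-like nuclei followed with 79.9 CPM (57.1 to 109) and 90.4 CPM (66.6 to 120) of Itga6, below MkP-like nuclei in each library but with overlap of the intervals in library 2. The start peak of Itga6 was not called in any lineage, whereas an intronic peak 7.3 kb before that start was at 15.3 (8.92 to 24.5) and 18.3 (12.1 to 26.6) ATAC CPM in MkP-like nuclei, 3.22-fold and 4.28-fold over the other nuclei. Larger folds near Itga6 stood in pro-NK/T-like nuclei, where its RNA had 2 and 0 UMIs, at peaks 47.2 kb (7.33-fold and 10.3-fold, from 5 and 6 counts) and 14.1 kb after the start (6.69-fold and 4.71-fold, from 14 and 7 counts). The peak at 14.1 kb was also called in MkP-like nuclei (4.04-fold and 2.77-fold, from 14 and 15 counts) and in EryP-like nuclei (2.28-fold and 3.68-fold). The peak at 47.2 kb was also called in pDCP-like nuclei, from 2 and 3 counts. These 3 members made up the calls in MkP-like nuclei, 3 of 5 members with enough UMIs there, beside 5.62% of all genes tested in that lineage. Sparse members such as Itgb3 had enough UMIs there through their high level, so this share is no support. In nuclei with at least 500 genes the Itgb3 call was lost, since 10 and 7 UMIs were left, at 14.3-fold in the lower library.

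The peak over the start of Itga2b was open in the same populations and in stem cells as well. ATAC levels (ATAC CPM) are counts in a peak per 1000000 counts of the population in all peaks, with Poisson intervals on halved counts because 82.5% of nonzero entries were even. This peak (chr11:102469655-102470575) held 36.0 ATAC CPM (25.7 to 49.1) and 33.2 (24.6 to 43.9) in MkP-like nuclei, and 42.0 (31.2 to 55.2) and 35.0 (25.2 to 47.4) in BaP-like nuclei. HSC-like nuclei reached 26.4 (21.9 to 31.5) and 25.7 (21.6 to 30.4), 2.68-fold and 2.67-fold over the other nuclei, whereas their Itga2b RNA was 2.22-fold and 1.44-fold. The peak of largest fold near Itga2b lay 29.4 kb after the start, at 39.95 and 31.9 ATAC CPM in cDCP-like nuclei (6.72-fold and 4.59-fold), where Itga2b had no UMI. That peak lies outside Itga2b and inside the gene Fam171a2, and which gene it acts on was not measured. At the start peak the intervals of MkP-like, BaP-like and HSC-like nuclei overlapped in each library, whereas those of their RNA levels did not. The 250 bases before the RefSeq start of Itga2b (GRCm38.p6, chr11:102469884-102470133, minus strand) are shown because this window lies inside that peak, with motif matches in capitals.
Itga2b upstream: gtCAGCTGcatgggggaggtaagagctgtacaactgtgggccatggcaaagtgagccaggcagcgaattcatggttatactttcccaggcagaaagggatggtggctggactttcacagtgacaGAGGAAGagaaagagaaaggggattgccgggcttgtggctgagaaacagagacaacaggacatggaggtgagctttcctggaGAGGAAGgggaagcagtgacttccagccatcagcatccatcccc
It held the letters GAGGAAG, a core of PU.1 sites, at 2 places and the E-box CAGCTG at 1 place, and no AGATAA, the GATA core. Of all 32851 promoter windows of 300 bases in the table, 13.6% held GAGGAAG on either strand, 16.3% held CAGCTG and 11.2% held AGATAA.

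**Figure D2:**
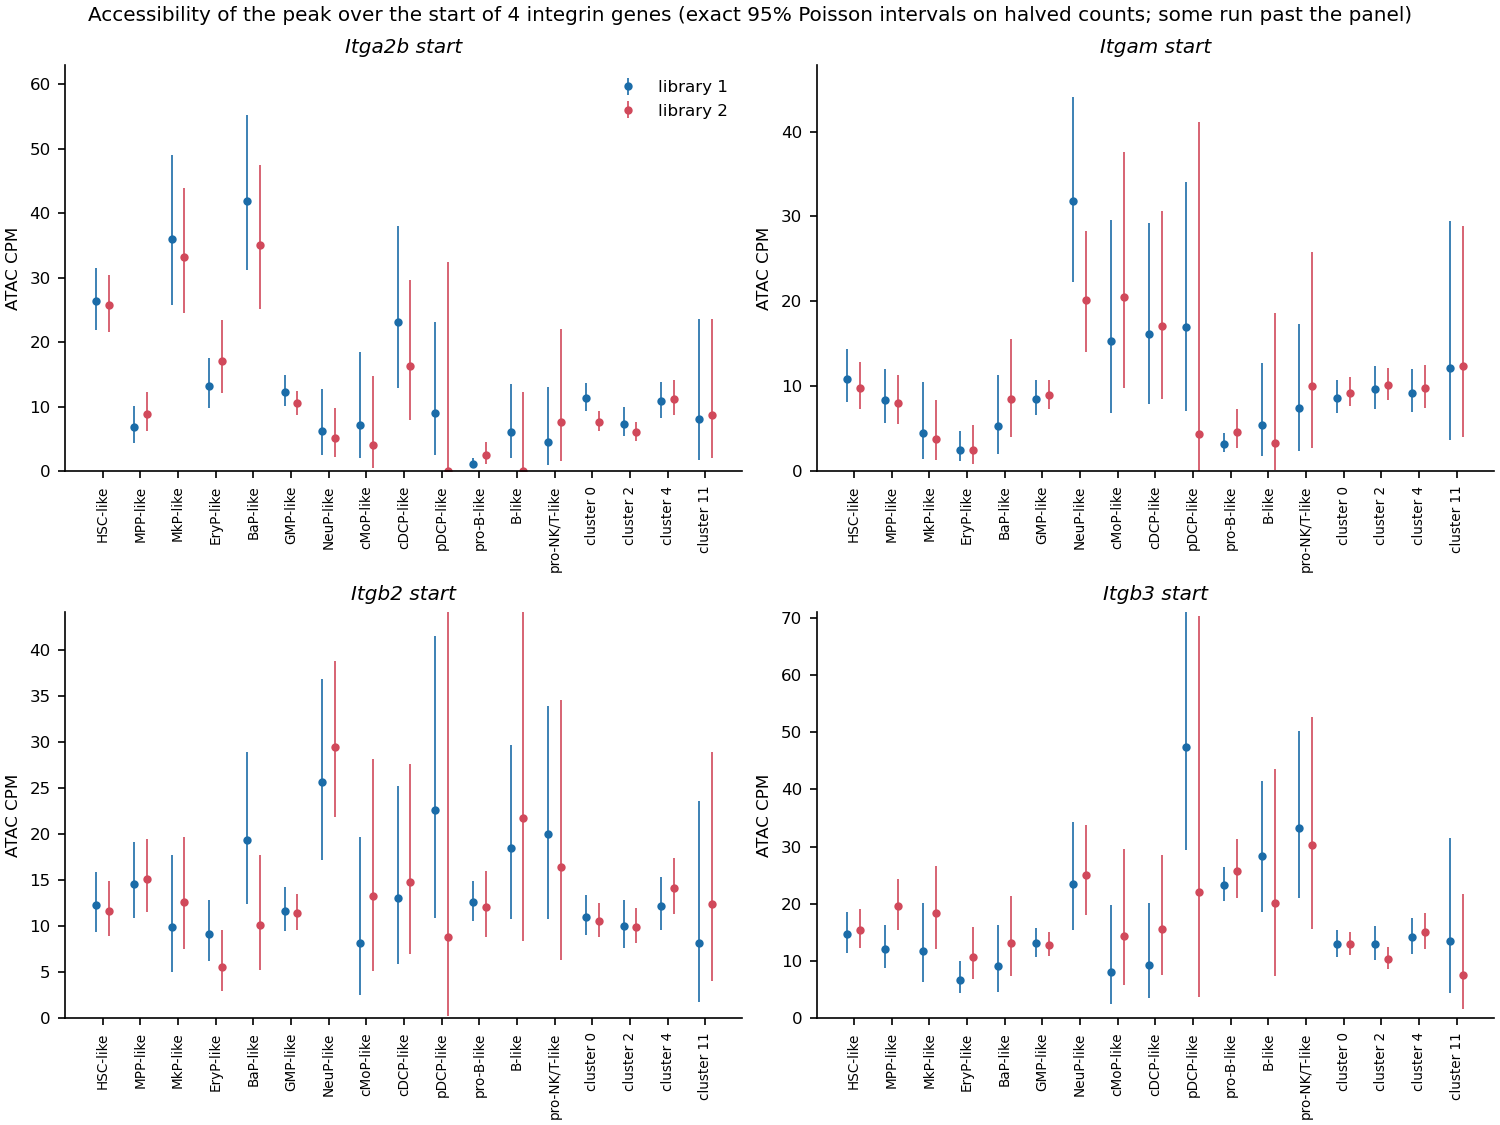
The panels plot ATAC CPM over the start peaks of Itga2b, Itgam, Itgb2 and Itgb3 in 17 populations, with library 1 in blue, library 2 in red and exact 95% Poisson intervals on halved counts as bars. The Itga2b start stood highest in BaP-like, MkP-like and HSC-like nuclei, the Itgam and Itgb2 starts were called in NeuP-like nuclei, and the Itgb3 start was called in pro-NK/T-like nuclei and not in MkP-like nuclei, at 11.7 and 18.3 ATAC CPM.

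The start peak of Itgb3 was called in pro-NK/T-like nuclei and not in MkP-like nuclei, and Itgb3 RNA in pro-NK/T-like nuclei was at 29.4 CPM (3.56 to 106) and 24.1 CPM (0.610 to 134), 3.78-fold and 3.05-fold over the other nuclei but from 2 UMIs and 1 UMI, too few for a call. In MkP-like nuclei the start peak (chr11:104607604-104608445) was at 0.763-fold and 1.26-fold of the other nuclei, whereas pro-NK/T-like nuclei held 33.3 ATAC CPM (21.0 to 50.2) and 30.2 (15.6 to 52.7), at 2.21-fold and 2.09-fold. Peaks away from the start were higher in MkP-like nuclei, 4 of the 27 peaks in the Itgb3 window, beside 4.41% of all peaks. The peak of largest fold in the window, 22.3 kb after the start, was called in pro-NK/T-like nuclei, at 29.6 and 28.9 ATAC CPM (13.2-fold and 10.1-fold). The strongest in MkP-like nuclei lay in an intron 10.9 kb after the start, with 21.6 ATAC CPM (13.8 to 32.2) and 23.0 (16 to 32.2) in MkP-like nuclei against 2.19 and 2.41 in the other nuclei, a 9.87-fold and 9.56-fold difference. EryP-like nuclei shared this peak at 9.07 and 8.64 ATAC CPM, and so did B-like nuclei at 5.44 and 8.35. The central 300 bases of the peak are printed from the plus strand (GRCm38, chr11:104618752-104619051) because it is the MkP-like peak of largest fold near a member called in that lineage.
Itgb3 peak at 10.9 kb: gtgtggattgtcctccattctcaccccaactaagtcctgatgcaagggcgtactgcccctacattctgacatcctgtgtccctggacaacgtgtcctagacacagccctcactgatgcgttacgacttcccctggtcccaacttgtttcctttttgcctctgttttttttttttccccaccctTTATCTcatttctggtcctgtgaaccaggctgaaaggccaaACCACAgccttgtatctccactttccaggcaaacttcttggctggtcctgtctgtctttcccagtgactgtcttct
The capitals mark TTATCT, the reverse strand of the GATA core AGATAA, and ACCACA, the reverse strand of the RUNX core TGTGGT. Among the central 300 bases of 174282 peaks, 13.3% held AGATAA on either strand and 29.7% held TGTGGT. In the 9 windows, 2 of the 11 peaks higher in MkP-like nuclei held TGTGGT (18.2%), beside 40.2% of all 7581 such peaks. Among the 11 peaks of the 9 windows that were higher in MkP-like nuclei, 4 held AGATAA (36.4%), beside 29.98% of all 7581 peaks higher in MkP-like nuclei, and among the 10 that were higher in EryP-like nuclei, 6 held it, against 41.5% of 8169. High shares were not particular to these lineages. In B-like nuclei 5 of 8 such peaks held it, beside 11.6% of 5930, and in HSC-like nuclei 2 of 3, beside 24.2% of 4766. Lower shares stood in BaP-like nuclei, 2 of 9 beside 37.1% of 6835, and in cMoP-like nuclei, 0 of 12 beside 11.6% of 5893.

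Itgam and Itgb2, which make the complement receptor of neutrophils and monocytes, were both called in NeuP-like nuclei. Itgam (chr7:128062640-128118491, plus strand) reached 480 CPM (351 to 640) in NeuP-like nuclei of library 1 and 478 CPM (377 to 599) in library 2, from 46 and 76 UMIs, or 23.9-fold and 15.2-fold over the other nuclei. Monocyte progenitors followed: cMoP-like nuclei held 236 CPM (118 to 423) and 207 CPM (94.6 to 393), 9.11-fold and 4.88-fold, from 11 and 9 UMIs, and their intervals overlapped those of NeuP-like nuclei. GMP-like nuclei, the stage before both, were at 18.3 CPM (9.73 to 31.2) and 34.6 CPM (24.4 to 47.7), under the level of the other nuclei. The antibody to CD11b in the lineage cocktail acts on cells that carry the Itgam protein, and its part in these levels was not tested.

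Itgb2 (chr10:77530252-77565708, plus strand) was at 219 CPM (136 to 335) and 138 CPM (86.8 to 210) in NeuP-like nuclei, 17.6-fold and 11.6-fold over the other nuclei, from 21 and 22 UMIs. The cMoP-like nuclei held 86.0 and 69.0 CPM of Itgb2 from 4 and 3 UMIs, too few for a call. In pro-NK/T-like nuclei 1 library decided the level, since library 1 gave 161 CPM (80.6 to 289) from 11 UMIs and library 2 gave 24.1 CPM (0.610 to 134) from 1 UMI. These 2 members were the calls among 5 with enough UMIs in NeuP-like nuclei, where 12.4% of all tested genes were called, and Itgam was the call among 2 in cMoP-like nuclei, where 18.3% were. Both members were sparse in the other nuclei, so these shares are no support either. NeuP-like nuclei were shallow, with medians of 914.5 and 1216 UMIs, and few held 500 genes, 24 and 26 nuclei, which left 6 and 11 UMIs of Itgam and 4 and 2 of Itgb2, too few for either call, at 11.6-fold and 4.98-fold in the lower library. With clusters from ATAC alone the NeuP-like folds in the lower library were 7.76 for Itgam and 6.31 for Itgb2, and both calls stayed. The cMoP-like call of Itgam ended with at least 500 genes per nucleus too, with 5 and 0 UMIs, and also ended with clusters from ATAC alone or without correction between libraries.

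Both genes had an open start in NeuP-like nuclei. The Itgam start peak (chr7:128062192-128063018) held 31.9 ATAC CPM (22.3 to 44.1) and 20.2 (14.0 to 28.2), at 4.18-fold and 2.29-fold, and the Itgb2 start peak (chr10:77529835-77530689) 25.7 (17.2 to 36.9) and 29.4 (21.8 to 38.8), at 2.13-fold and 2.57-fold. The folds of these starts were smaller than the folds of the RNA in each library. Itgb2 had 6 of its 24 window peaks higher in NeuP-like nuclei and Itgam 4 of 30, beside 3.56% of all peaks, among them a peak 37.1 kb before the start of Itgam with 19.0 and 14.6 ATAC CPM, 12.6-fold and 5.15-fold over the other nuclei. The 250 bases before the Itgam start (GRCm38.p6, chr7:128062390-128062639, plus strand) and the central 300 bases of the intronic peak 0.9 kb after it (chr7:128063425-128063724, plus strand) are shown as the pair of adjacent sequences that were open in NeuP-like nuclei, the latter at 25.2 and 24.7 ATAC CPM, 4.78-fold and 3.21-fold.
Itgam upstream: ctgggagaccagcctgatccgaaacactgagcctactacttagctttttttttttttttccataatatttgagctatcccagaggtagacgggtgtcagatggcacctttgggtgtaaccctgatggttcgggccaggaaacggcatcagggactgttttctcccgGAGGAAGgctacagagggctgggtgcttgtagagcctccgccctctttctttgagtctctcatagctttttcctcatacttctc
Itgam peak at 0.9 kb: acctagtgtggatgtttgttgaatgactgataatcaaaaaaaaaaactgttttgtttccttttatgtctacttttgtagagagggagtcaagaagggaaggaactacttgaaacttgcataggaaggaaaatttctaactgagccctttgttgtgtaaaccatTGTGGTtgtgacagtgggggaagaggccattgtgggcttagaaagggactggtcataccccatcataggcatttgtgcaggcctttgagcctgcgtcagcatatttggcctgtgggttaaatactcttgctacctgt
The upstream bases held GAGGAAG at 1 place and the intronic peak TGTGGT at 1 place. Neither held a CEBP core, for which TTGCGCA and TTGCACA were searched and which 5.5% of all promoter windows and 6.0% of all peaks held. Among the 12 peaks of the 9 windows higher in NeuP-like nuclei, 4 held GAGGAAG (33.3%), beside 29.2% of 6111 such peaks genome-wide.

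The Itgam window also held peaks of lineages in which Itgam was not called. A peak 17.7 kb after its start held 39.5 ATAC CPM (23.2 to 62.8) and 26.4 (5.44 to 77.1) in pDCP-like nuclei, 66.2-fold and 42.9-fold over the other nuclei, from 35 and 6 counts, while Itgam itself had 0 UMIs in pDCP-like nuclei of either library, with intervals that reached up to 97.6 and 370 CPM, so that its level there was not resolved. A peak 38.4 kb after the start held 23.8 ATAC CPM (20.9 to 26.9) and 26.1 (21.2 to 31.7) in pro-B-like nuclei, 17.4-fold and 22.9-fold, where Itgam was at 17.2 and 22.9 CPM. The annotation places the gene Gm49368, which has no row in the file, over Itgam on the same strand, and which gene these peaks act on was not measured.

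Itga4 was called in pro-NK/T-like nuclei and in pro-B-like nuclei. The gene (chr2:79255426-79333123, plus strand) encodes the subunit that binds Vcam1 and fibronectin and holds progenitors in the marrow. In pro-B-like nuclei it stood at 831 CPM (776 to 888) and 543 CPM (468 to 626), 2.15-fold and 2.41-fold over the other nuclei (1 of 6 members with enough UMIs, beside 6.35% of all genes), and in pro-NK/T-like nuclei at 1028 CPM (801 to 1298) and 699 CPM (468 to 1003), 2.24-fold and 2.90-fold. EryP-like nuclei reached 839 CPM (753 to 932) and 600 CPM (507 to 706), yet 1.92-fold in library 1 kept them under the threshold. The intervals of the 3 lineages overlapped in each library, so their order was not resolved. BaP-like nuclei, at 750 and 367 CPM (1.63-fold and 1.51-fold), were not separated from pro-NK/T-like nuclei either, whereas B-like nuclei, at 437 and 233 CPM, lay below them in both libraries. NeuP-like nuclei stood lowest of 17 populations, at 157 CPM (87.6 to 258) and 94.4 CPM (52.8 to 156), and Itga4 had UMIs in every population.

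Of 15 tested peaks near Itga4, 6 were called (40.0%), near the 38.1% of all peaks, and the sum over its window was at 1.43-fold and 1.64-fold in pro-B-like and 1.12-fold and 1.05-fold in EryP-like nuclei. A peak 24.3 kb before the start held 27.4 ATAC CPM (24.3 to 30.8) and 26.2 (21.4 to 31.8) in pro-B-like nuclei against 1.34 and 1.47 in the other nuclei, 20.4-fold and 17.8-fold. A peak in an intron 4.1 kb after the start held 30.4 ATAC CPM (25.0 to 36.7) and 24.4 (18.4 to 31.7) in EryP-like nuclei, 13.4-fold and 10.8-fold. It was also called in pro-NK/T-like nuclei (3.04-fold and 4.22-fold) and in B-like nuclei (2.08-fold and 2.77-fold). Another intronic peak, 14.9 kb after the start, was shared by HSC-like, MkP-like and EryP-like nuclei, with EryP-like nuclei at 17.4 ATAC CPM (13.4 to 22.3) and 12.4 (8.25 to 17.9). The start peak of Itga4 (chr2:79254705-79255519) was open more evenly, with pro-B-like nuclei highest at 71.8 and 69.9 ATAC CPM, 1.63-fold and 1.81-fold. The central 300 bases of the pro-B-like peak (GRCm38, chr2:79231035-79231334) and of the EryP-like peak (chr2:79259404-79259703), both read from the plus strand, are shown because they were the peaks of largest fold near Itga4 in these lineages.
Itga4 peak at -24.3 kb: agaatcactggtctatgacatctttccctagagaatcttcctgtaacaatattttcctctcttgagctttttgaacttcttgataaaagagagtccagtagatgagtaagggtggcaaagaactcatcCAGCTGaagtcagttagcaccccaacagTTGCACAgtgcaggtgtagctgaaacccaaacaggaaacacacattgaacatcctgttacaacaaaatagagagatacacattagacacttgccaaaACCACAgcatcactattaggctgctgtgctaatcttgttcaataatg
Itga4 peak at 4.1 kb: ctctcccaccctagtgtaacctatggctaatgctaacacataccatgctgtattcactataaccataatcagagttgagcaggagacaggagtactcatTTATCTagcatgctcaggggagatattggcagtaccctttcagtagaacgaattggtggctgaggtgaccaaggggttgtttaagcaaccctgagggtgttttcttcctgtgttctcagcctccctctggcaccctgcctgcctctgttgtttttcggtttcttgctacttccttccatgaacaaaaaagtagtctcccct
The pro-B-like peak held the E-box CAGCTG, the CEBP core TTGCACA and the reverse strand of the RUNX core (ACCACA), each at 1 place, and the EryP-like peak held the GATA core as TTATCT. Of all peaks, 19.7% held CAGCTG, and of the 10815 peaks higher in pro-B-like nuclei, 34.2% did, beside 5 of the 11 such peaks in the 9 windows (45.5%).

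Itgal, the alpha subunit that binds Icam1 together with Itgb2 on lymphocytes (chr7:127296260-127335138, plus strand), was called in pro-NK/T-like nuclei alone. It reached 426 CPM (285 to 611) and 458 CPM (276 to 715) there, from 29 and 19 UMIs, 3.90-fold and 4.79-fold over the other nuclei. Its intervals in that lineage lay above those of 14 of the other 16 populations in both libraries, the exceptions being NeuP-like nuclei, at 209 and 101 CPM, and the few pDCP-like nuclei. Itgal was low in MkP-like nuclei, at 39.1 CPM (12.7 to 91.3) and 48.4 CPM (19.5 to 99.8), and in pro-B-like nuclei, at 67.1 CPM (52.3 to 84.7) and 42.9 CPM (24.0 to 70.7). Of the members with enough UMIs in pro-NK/T-like nuclei, Itga4 and Itgal were called and Itgb1 was not, 2 of 3, beside 17.1% of all genes tested there. With at least 500 genes per nucleus only 40 and 12 of these nuclei remained, and the folds fell to 1.37 for Itga4 and 1.55 for Itgal in the lower library. TMM scaling also ended the Itga4 call in pro-NK/T-like nuclei, at 1.93-fold, and both calls were lost with clusters from ATAC alone or without correction between libraries, where no such lineage was named. The start interval of Itgal in the file spans several annotated starts, and of the 5 peaks over it the first was not called in any lineage. Another of them, 7.7 kb after the first start and over no annotated exon of Itgal, had the largest fold near the gene. It was at 13.4-fold and 12.2-fold in pDCP-like nuclei, from 14 and 4 counts. Peaks before the start were higher in pro-NK/T-like nuclei, the peak 17.7 kb before it at 28.1 and 32.7 ATAC CPM (2.95-fold and 3.62-fold) and the peak 10.9 kb before it at 26.6 and 31.4 ATAC CPM (3.99-fold and 6.11-fold), the latter also called in EryP-like nuclei.

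**Figure D3:**
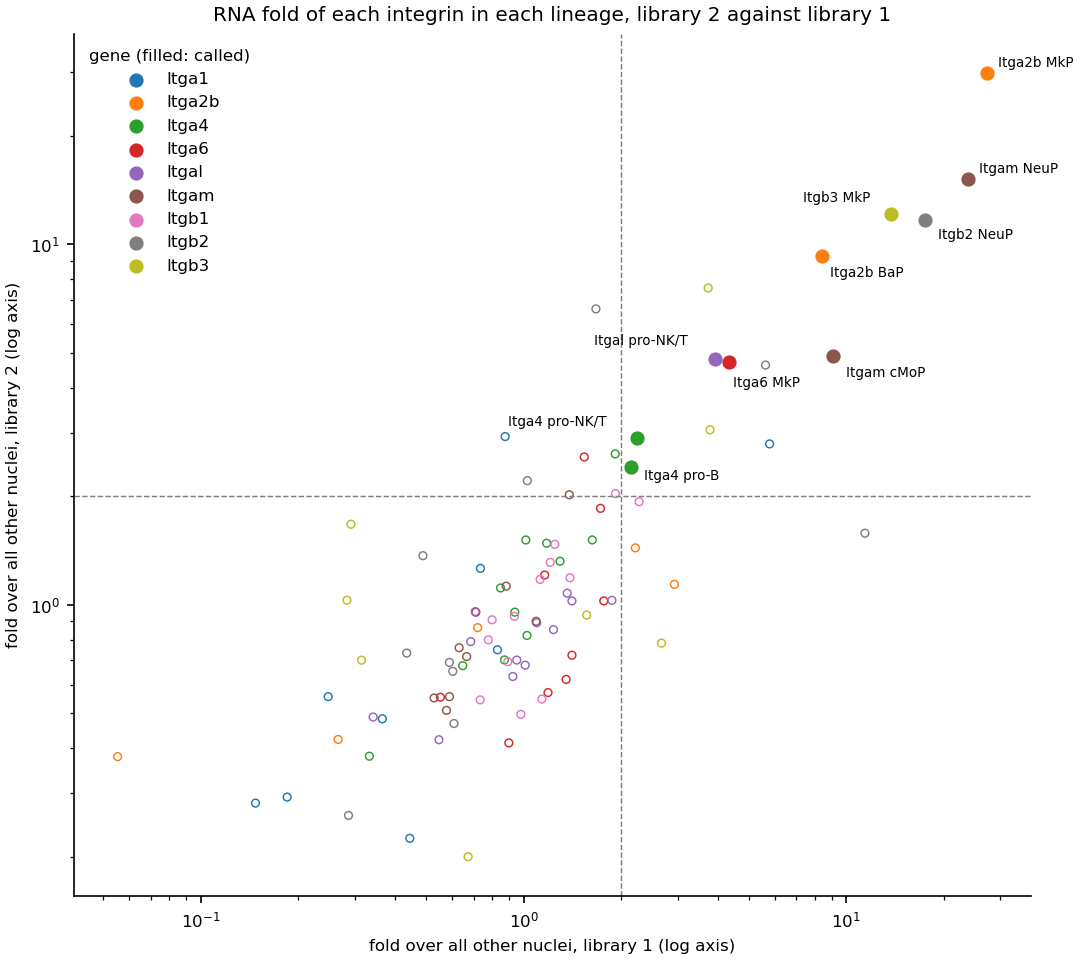
Each point is 1 integrin in 1 of 13 lineages, with its RNA fold over all other nuclei in library 1 on the horizontal axis and in library 2 on the vertical axis, both logarithmic, and dashed lines at 2-fold; 21 of 117 pairs with 0 UMIs in a library are not drawn. The 10 filled, named pairs were called, from 2.15-fold for Itga4 in pro-B-like nuclei to over 27-fold for Itga2b in MkP-like nuclei, and the open points above both lines had under 20 UMIs.

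Itgb1, the beta subunit shared by the receptors of matrix proteins (chr8:128685654-128733200, plus strand), had no lineage past the threshold. Its highest levels were 382 CPM (249 to 559) and 241 CPM (116 to 443) in pro-NK/T-like nuclei and 321 CPM (230 to 435) and 249 CPM (175 to 345) in MkP-like nuclei. Each of them passed 2-fold in 1 library and reached 1.93-fold in the other. No neighbours in the order of its 17 levels were separated in both libraries. Its start peak was not called either, with MkP-like nuclei the highest in the lower library at 1.38-fold and 1.31-fold. Without the nuclei of highest doublet score, Itgb1 was called in both lineages, and in MkP-like nuclei also with clusters made without correction between libraries. In pro-NK/T-like nuclei a peak 40.0 kb before the start was called, with 18.5 ATAC CPM (9.71 to 32.0) and 11.3 (3.40 to 27.6), 23.5-fold and 15.6-fold over the other nuclei.

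Itga1, a collagen receptor subunit (chr13:114953096-115101964, minus strand), was the member whose signal lay mostly outside the named lineages. Its level in cMoP-like nuclei was 279 CPM (149 to 478) in library 1 and 69.0 CPM (14.2 to 202) in library 2, from 13 and 3 UMIs, so the 20 UMIs for a call were not reached. Cluster 2, led by Nrg1, Stxbp6 and Gpr141, held 145 CPM (116 to 178) and 52.8 CPM (39.3 to 69.4), 3.69-fold and 2.70-fold, from 88 and 51 UMIs. Cluster 0, led by Tnf, Mefv and Cxcl2, held 126 CPM (103 to 152) and 42.0 CPM (30.7 to 56.0), from 108 and 46 UMIs, 3.38-fold and 1.99-fold. HSC-like nuclei, at 7.99 and 7.53 CPM, and MPP-like nuclei, at 9.84 and 7.68 CPM, were far below, with intervals that did not overlap those of either cluster. The start peak of Itga1 was at 18.1 and 16.4 ATAC CPM in cluster 2, 1.90-fold and 1.73-fold. Its strongest lineage peak lay elsewhere, 15.3 kb before the start, at 60.7 and 39.6 ATAC CPM in cDCP-like nuclei, where Itga1 had 1 and 0 UMIs. The gene Pelo lies inside Itga1 on the same strand and had 36 and 43 UMIs in all nuclei. The annotation also places the protein-coding gene Gm49395 over Itga1 on the same strand. Its start lies 90 bases from the middle of the Itga1 start peak, and which gene that peak acts on was not measured.

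Across the 9 windows, 77 of 186 peaks with at least 50 counts in each library were at least 2-fold higher in 1 or more lineages in both libraries, or 41.4%, beside 38.1% of all 171725 peaks tested. The 2 shares were close. The count was 3 (1.61% of 186) in each of HSC-like, MPP-like and GMP-like nuclei, beside 2.78%, 3.89% and 3.08% of all peaks. It was 11 (5.91%) in MkP-like nuclei, 10 (5.38%) in EryP-like and 9 (4.84%) in BaP-like nuclei, beside 4.41%, 4.76% and 3.98%. Counts of 12 (6.45%) stood in NeuP-like, cMoP-like and cDCP-like nuclei, beside 3.56%, 3.43% and 5.56%, with Itgb2 holding 6 in NeuP-like and 4 in cMoP-like nuclei. There were 9 (4.84%) in pDCP-like, 11 (5.91%) in pro-B-like, 8 (4.30%) in B-like and 13 (6.99%) in pro-NK/T-like nuclei, beside 4.46%, 6.30%, 3.45% and 3.92%. For every member the peak of largest fold lay away from the first start that the file gives. For Itgal it lay 7.7 kb after that start, inside the wide start interval. The peak 23.5 kb before Itgb2 stood at 23.1 and 23.5 ATAC CPM in pro-B-like nuclei, where Itgb2 RNA was at 7.66 and 11.4 CPM. The latter peak lies inside the gene Fam207a, and which gene it acts on was not measured. Summed over the whole window, no member reached 2-fold in both libraries in any lineage; the sums lay between 0.505-fold and 2.03-fold of the other nuclei, with Itgam at 0.505-fold and 0.579-fold in EryP-like and Itga1 at 2.03-fold and 1.62-fold in cDCP-like nuclei. Over 16 populations, without the few pDCP-like nuclei, the window sum and RNA level had Pearson's r of 0.591 and 0.773 for Itgb2 and 0.608 and 0.561 for Itgb1 in the 2 libraries, and −0.041 and 0.291 for Itga2b. For Itga1 r was 0.540 and 0.093, for Itga4 0.104 and 0.402, and for Itga6 0.269 and 0.259. It was 0.394 and 0.502 for Itgal, 0.282 and 0.649 for Itgam, and −0.026 and 0.636 for Itgb3. Itgb2 and Itgb3 were sparse, with under 200 UMIs each. These values describe points that share libraries and depth.

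**Figure D4:**
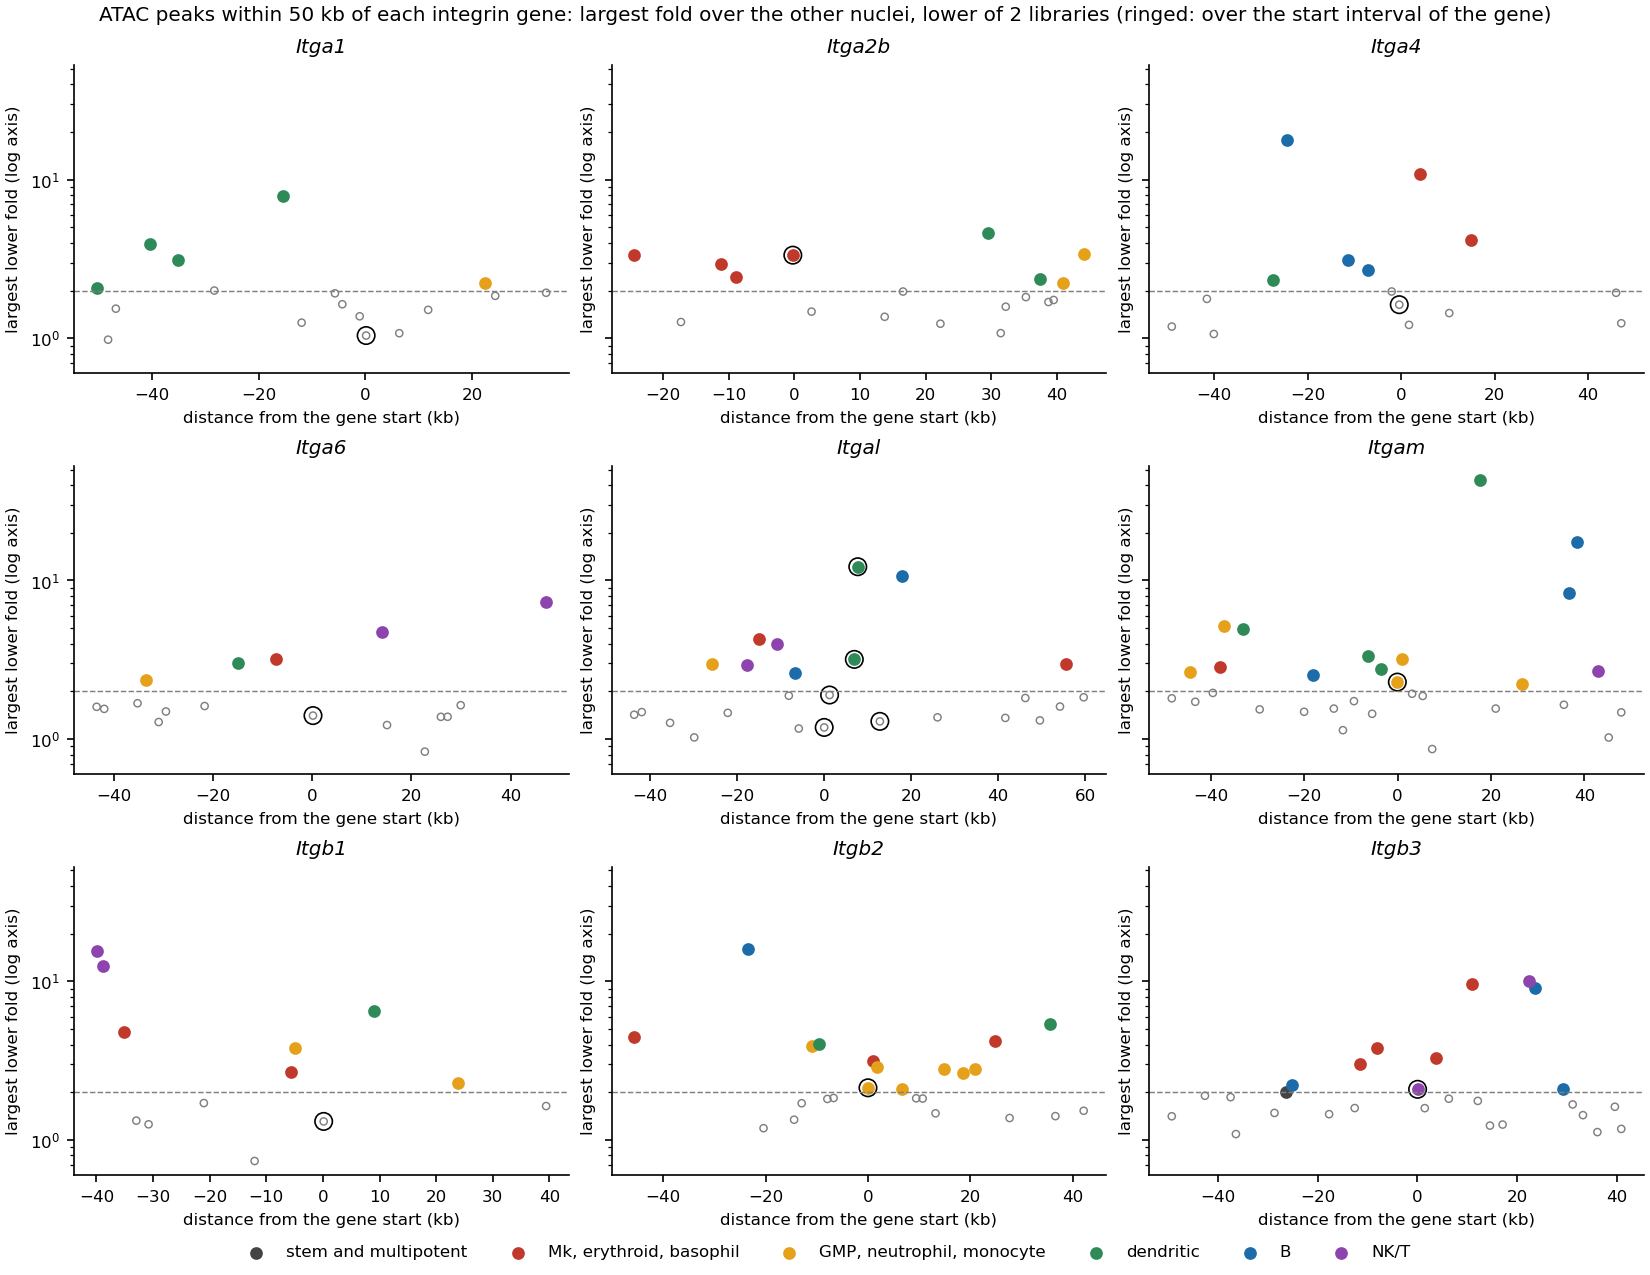
Each panel plots the tested ATAC peaks around 1 integrin gene by distance from its start in kb and, on a log axis, the largest fold over the other nuclei among 13 lineages, taken in the lower of the 2 libraries; filled points passed the dashed line at 2-fold, coloured by the lineage of largest fold, and rings mark peaks over the start interval. The peaks of largest fold, 42.9 for Itgam, 17.8 for Itga4 and 15.9 for Itgb2, lay away from the starts. The start peak of Itga2b reached 3.34-fold. A ringed peak inside the wide start interval of Itgal, 7.7 kb after its first start, reached 12.2-fold.

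Members differed in which genes followed the same pattern. Over the 16 populations, the gene with log2(CPM + 1) most like Itga2b was Dach1 (r of 0.785 and 0.852 in libraries 1 and 2), followed by Tgfbr3 and Cmas. The closest to Itga4 was Ptp4a2 (0.729 and 0.746), before Lpin2 and Fryl, and the closest to Itgal was Emb (0.702 and 0.761), before Arhgap45 and Arid5b. Rasa1 came first for Itgb1 (0.790 and 0.705), before Runx3 and Fbxl17, and Asph for Itga6 (0.667 and 0.682), before Vkorc1l1 and Taok3. Morrbid came first for Itga1 (0.685 and 0.652), before F13a1 and Ing2, and Ftl1 for Itgam (0.621 and 0.612), before Fis1 and Pnrc1. Among the members, Itga2b and Itga6 went together, with r of 0.483 and 0.648, and Itga6 and Itgal went apart, with r of −0.517 and −0.762. Itga4 and Itgb1 had r of 0.657 and 0.323. For the other partners of Itgb1, r was −0.288 and −0.151 with Itga1, and 0.364 and −0.206 with Itga6. Itgb2 and Itgb3 had under 200 UMIs and are given no r with another gene.

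The 2 libraries differed in the overall level of several members. Relative to library 2, the median of 6904 genes with at least 200 UMIs stood 0.40 higher in library 1 on the log2 scale, with 5th and 95th percentiles of −0.33 and 1.03. Itga4 stood 0.93 higher, in 17 of 17 populations, and Itga1 1.002 higher, in 13 of 15 with a UMI. Both values lie within these percentiles. Itga6 and Itgb1, near the median at 0.43 each, were also higher in 15 of 17 populations, and Itgal, at 0.20, in 14 of 17. Itgam differed the other way, at −0.66, and was higher in library 1 in 4 of 16 populations, although its NeuP-like levels overlapped in their intervals. Genes of the ribosomal locus took 38.1% to 57.2% of the UMIs of a population in library 1 and 51.6% to 63.4% in library 2, and their part in these differences was not tested. Which library was the ligature sample is not given, so these are values of 2 libraries.

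Other integrin subunits were mostly too rare to place. Of 17 further subunits, 4 reached 20 UMIs in a lineage and 2 were called, beside 21.1% of all genes; the calls lay in cDCP-like, HSC-like and MPP-like nuclei, where 11.9%, 3.37% and 4.21% of all genes were called. Itgb7, the alternative partner of Itga4, was at 358 and 217 CPM in cDCP-like nuclei, 25.7-fold and 21.8-fold over the other nuclei, from 22 and 13 UMIs, while Itga4 in these nuclei was at 472 and 368 CPM, 1.02-fold and 1.51-fold. Itga9 was at 33.97 and 26.4 CPM in HSC-like nuclei (3.57-fold and 2.13-fold) and also called in MPP-like nuclei. Itga5 and Itgav were not called, and 13 subunits, Itgax among them, stayed under 20 UMIs in every lineage.

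Genes that switch integrins on and signal from them were not left out of the clustering, so their values describe the lineages and test nothing. Of 36 genes, 27 had enough UMIs and 15 were called, beside 21.1% of all genes. In NeuP-like nuclei 7 of 21 tested genes were called, beside 12.4% of all genes tested there, in MkP-like nuclei 5 of 16, beside 5.62%, and in cMoP-like nuclei 5 of 13, beside 18.3%. In MkP-like nuclei, where Itga2b and Itgb3 were called, Fyb, an adaptor of integrin activation, was at 462 and 249 CPM (4.97-fold and 4.39-fold) and Fermt3, the kindlin of blood cells that binds beta subunit tails, at 376 and 215 CPM (2.98-fold and 2.35-fold). Fyb was not particular to MkP-like nuclei. It was also called in BaP-like (5.24-fold and 5.09-fold), cMoP-like (6.21-fold and 9.55-fold), pDCP-like (7.94-fold and 6.60-fold) and pro-NK/T-like nuclei (5.51-fold and 2.78-fold). In NeuP-like nuclei, where Itgam and Itgb2 were called, the Src family kinase Fgr, which acts behind Itgb2 integrins, was at 136 and 107 CPM (23.0-fold and 32.2-fold). Skap1, an adaptor in the T cell activation of Itgal, was at 1688 and 747 CPM in pro-NK/T-like nuclei, 178-fold and 92.7-fold. Syk and Lyn led in B-like nuclei, with 7.67-fold and 5.36-fold in the lower library, and no gene of the list was called in HSC-like, MPP-like, EryP-like, GMP-like or pro-B-like nuclei, where 19 to 24 of its genes were tested and 3.37%, 4.21%, 4.76%, 0.979% and 6.35% of all genes were called, so that a count of 0 is near these shares.

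Of 20 ligands, counter-receptors and homing receptors, 13 had enough UMIs and 7 were called, beside 21.1% of all genes. Vwf, which platelets bind, was at 297 and 256 CPM in MkP-like nuclei and fibronectin (Fn1) at 1418 and 828 CPM in cMoP-like nuclei. Both were among the marker genes of those lineages. Thbs1, on the marker list of MkP-like and not of NeuP-like nuclei, was called in NeuP-like nuclei, at 856 and 157 CPM (274-fold and 52.9-fold). Among the others were Vcam1, the counter-receptor of Itga4, in GMP-like nuclei at 9.84 and 17.8 CPM (5.63-fold and 5.02-fold), the laminin chain Lamc1 in pro-B-like nuclei at 75.7 and 54.3 CPM (5.29-fold and 4.84-fold), and the collagen Col4a1 in HSC-like nuclei (9.29-fold and 7.54-fold).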

How the data were processed

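The deposited matrix holds raw counts that the authors made with Cell Ranger ARC 2.0.0 on GRCm38, UMIs per gene and ATAC counts per peak, without normalization; per the labels Seurat 4.0.3 and Signac 1.3.0 followed. The members, gene lists and rules were chosen with earlier results of these data known. Barcodes with fewer than 200 genes, or outside 1000 to 50000 peak counts, were dropped; the matrix held 0 mitochondrial rows, and 72 barcode sequences occurred among the kept nuclei of both libraries.

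RNA (30 principal components) and ATAC (latent semantic indexing), without 31 integrin genes and 538 peaks near them, were corrected between libraries, joined by weighted nearest neighbours and clustered (Seurat 5.3.0, R 4.3.3). A lineage name needed at least 3 raised markers, a mean log2 ratio of at least 1 and a marker among the 10 leading genes. Counts were summed per population and library; with libraries in no group, no test and no p-value was computed. The rule for calls was also run on simulated data, for HSC-like and MkP-like nuclei only. Its outcome is not given here, and the run is used as support for no call. How the rule performs for sparse genes, as most members are, or for folds near the threshold is not shown. All 9 members are named, beside at most 3 pathway genes per lineage (some of which are not reported here), the 3 genes most like a member, and the start peak and the peak of largest fold per member; the Itgb3, Itgam and Itga4 peaks printed besides, and single peaks named beside those, were chosen after their values were seen. Promoters came from RefSeq (GRCm38.p6), which matched 5 of 9 members, and annotation from GENCODE vM21. Alternatives covered the UMI minimum, the fold, the scaling, the depth, the doublets, the clustering and the window.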

Additional observations from a re-analysis of the deposited data

How the results depend on the processing

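No paired analysis was possible because each condition had 1 sample and the libraries stand in no group. Of 76 recomputed folds of the 10 called pairs, 72 stayed at least 2-fold. Pairs of a lineage that a setting did not name gave no fold and are not among the 76. A fold of 2 is not yet a call. With at least 500 genes per nucleus the only pairs still called were Itga2b and Itga6 in MkP-like, Itga2b in BaP-like and Itga4 in pro-B-like nuclei. The count of 7 called members fell to 3 (Itga2b, Itga4 and Itga6) with at least 500 genes per nucleus, which left 6157 nuclei, and the fold of Itgam in cMoP-like nuclei was then 0.0 in the lower library, since no UMI was left. The count of 24 called pathway genes became 14 under that minimum, 14 at 3-fold and 38 with no UMI minimum. The count of 77 window peaks became 24 of 51 in a window of 10 kb, 129 at 1.5-fold and 45 at 3-fold. The shares of all genes and all peaks called under these other settings were not computed, so these counts cannot be set beside them. No pro-NK/T-like cluster was named with clusters from ATAC alone or without correction between libraries, so both calls in that lineage, Itga4 and Itgal, were lost there. The call of Itgam in cMoP-like nuclei was lost under both settings too, at 5.43-fold and 4.81-fold in the lower library but under the UMI minimum. Clusters from ATAC alone added Itga2b in HSC-like nuclei, and clusters without correction added Itgb1 in MkP-like nuclei; without the 8% of nuclei of highest doublet score Itgb1 was called in MkP-like and pro-NK/T-like nuclei. Leaving out barcodes found under both suffixes, chosen after seeing the data, kept all 10 pairs. Scrublet called 3 doublets, too few to have worked. The ATAC limits on halved counts would keep 5909 and 7383 nuclei; applied to the nuclei already clustered, they left 77 window peaks called. Over both libraries Itgb2 had 183 UMIs and Itgb3 had 94.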
